A study of Mus musculus with 6 samples.

Results

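Caspases are proteases that lie dormant until they are cleaved or brought together, and this account follows 6 of them with 2 of their natural inhibitors: Casp1, Casp4, Casp8, Casp9, Casp2, Casp6, Xiap and Birc3. They were chosen by name. Every probe whose annotated gene name was 1 of these 8 symbols was taken, which gave 10 probes. The array carried 34950 names in all, of which 18228 had a probe bright enough to be tested, and all 8 genes were among those.

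The cells were erythroid progenitors from mouse fetal liver at embryonic day E-14.5, infected with a retrovirus and kept for 3 days in a medium with erythropoietin, dexamethasone and a kit ligand supernatant. In the 3 shExosc8 samples the virus carried a short hairpin RNA against Exosc8, a subunit of the RNA exosome, which degrades and trims RNA in the nucleus and cytoplasm. In the 3 shControl samples the hairpin was directed against luciferase, which mouse cells do not have. Both groups were therefore infected, and no uninfected cells and no other hairpin against Exosc8 were analysed here. The labels leave unsaid whether replicates were separate cultures or animals. The p-values therefore reflect sample-to-sample spread that may be only technical.

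Caspases fall into classes by what starts them and what they cut. Casp8 is activated at death receptors and Casp9 on the apoptosome after cytochrome c leaves mitochondria, and both then cleave executioner caspases, which take the cell apart. Inflammatory caspases act differently: Casp1 is activated on inflammasomes and matures interleukin-1, and Casp4, the mouse gene for the enzyme long called caspase-11, is activated by bacterial lipopolysaccharide in the cytosol and cleaves gasdermin D, so that the cell lyses. Inhibitor of apoptosis proteins (IAPs) such as Xiap and Birc3 hold this system back, Xiap by binding active caspases and Birc3 mainly as a ubiquitin ligase in receptor signalling. Maturing erythroid cells use a limited, non-lethal caspase activity as they remodel their nucleus, which is why caspase RNAs are of interest in this lineage.

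The probes themselves are 60 bases long. The first 30 bases of those behind the 4 genes that changed are shown, because the Casp4 result rests on 2 probes that are almost the same sequence. Capitals mark the bases that both Casp4 probes share within the stretch shown.
Casp1: ctatgctgagaatcgtgccaataagaagcc
Casp4, probe 1: ccagcCTAAGCAACACAGTGGGATTCTGTT
Casp4, probe 2: CTAAGCAACACAGTGGGATTCTGTTccata
Casp8: gtgaagaactgcgtttcctaccgagatcct
Xiap: cgtttatggaaactcctttatggaattgct
In mm9, the build of the array annotation, the Casp1 probe lies at chr9:5307206-5307265 and the Casp4 probes at chr9:5336658-5336717 and chr9:5336663-5336722. The Casp8 probe lies at chr1:58901601-58901660 and the Xiap probe at chrX:39462720-39462779, all of them on the plus strand. The Casp4 probes start 5 bases apart and share 55 of 60 bases, so they do not measure the gene independently. No 2 probes of different genes among the 8 shared a run of more than 7 bases, and the Birc3 pair shared at most 5. The annotation of exons and untranslated regions in mm9 was not used here.

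The hairpin's target was lower in the cells that received it. Exosc8 signal stood at 40.4%, 40.0% and 57.4% of the shControl mean in shExosc8 replicates 1, 2 and 3, against 98.5%, 97.8% and 104% in the shControl replicates (log2 difference -1.14, SE 0.17, adjusted p = 0.00606). ShExosc8 replicate 3 was thus the least depleted. All 6 arrays sat on 1 slide and were read in 1 scan. Each group filled its own slide row, so an effect of the row cannot be told apart from an effect of the hairpin. The share of spots well above background was 43.1% to 46.9% on the shExosc8 arrays and 45.1% to 67.3% on the shControl arrays, the highest being shControl replicate 2. All 13 erythroid markers examined, among them Alas2, Epb42, Hbb-bs and Slc4a1, were well above background on every shControl array. Signals below are scanner intensities scaled so that all arrays have the same 75th percentile, differences are log2 of shExosc8 over shControl, and adjusted p-values are limma's, with Benjamini-Hochberg adjustment over 24836 probes and a threshold of 0.05.

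Of the 8 genes, Casp1, Casp4 and Xiap rose in shExosc8 cells and Casp8 fell. Across all 18228 names 15.6% rose and 12.7% fell, so 1 of 8 falling is close to the share for the array. Of the 3 that rose, Casp1 was tested only because it was bright in shExosc8 cells, and among the 7 genes well above background on all 6 arrays 2 rose. In each of the 8 genes, taken by its brighter probe, the shExosc8 arrays did not overlap with the shControl arrays, which was also true of 51.6% of all names. The plot of the probes by array shows both inflammatory caspases far above their controls and the apoptotic ones slightly below theirs.

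**Figure D1:**
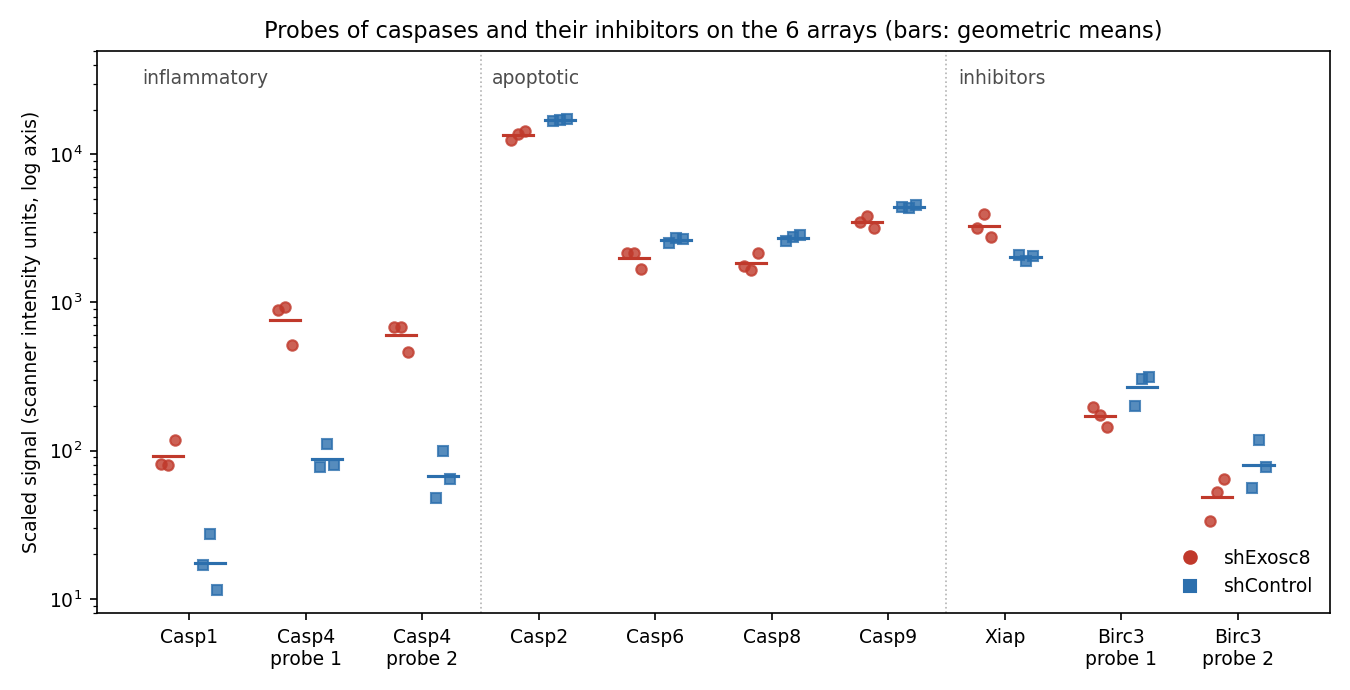
Scaled signal (scanner intensity units, log axis) of the 10 probes on each of the 3 shExosc8 arrays (red circles) and 3 shControl arrays (blue squares), with horizontal bars at the geometric means; heights of different probes should not be compared with each other. For Casp4 probe 1, the shExosc8 arrays lie between 520 and 930 and the shControl arrays between 77.8 and 111, while Casp2, Casp6, Casp8 and Casp9 are each slightly lower on all shExosc8 arrays.

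Casp4 rose in shExosc8 cells. Its probe 1 read 896, 930 and 520 on the shExosc8 arrays, against 77.8, 111 and 79.9 on the shControl arrays. The lowest shExosc8 array was still several times the highest shControl array, and that lowest value came from replicate 3. The difference was 3.10 (SE 0.27, adjusted p = 0.00125), or 8.57-fold (95% interval 5.48 to 13.4). Probe 2 gave 686, 685 and 463 in shExosc8 cells and 48.1, 99.8 and 64.6 in shControl cells, a difference of 3.15 (SE 0.30, adjusted p = 0.00171). Both probes cleared the background flag on each of the 6 arrays, so Casp4 RNA was detected in the controls too. With the slide column of each array as a block, the differences of probes 1 and 2 were 2.90 and 3.02 and missed the threshold (adjusted p = 0.0553 and 0.0631). In that fit shExosc8 replicate 1 (column 1) and shControl replicate 3 (column 4) had no partner. It thus compared only the arrays of columns 2 and 3.

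Casp1 rose as well, from a level that the arrays could not resolve in the controls. It read 80.9, 80.3 and 117 in shExosc8 cells and 17.0, 27.5 and 11.5 in shControl cells. The probe was well above background on all 3 shExosc8 arrays and on 0 of the 3 shControl arrays, so it entered the test only through the group in which it was bright. The shExosc8 signal was at least 3.55-fold higher than the dimmest signal the shControl arrays could place above background, a bound set per array by the lowest probe well above background or the Casp1 probe's own signal, whichever was higher. That bound holds only for the background subtraction used here. The fitted difference was 2.38 (SE 0.33, adjusted p = 0.00558), a number that also depends on how background is handled. With background modelled by normexp it was 0.65 after quantile normalization (adjusted p = 0.0237) and 0.90 after scaling to the 75th percentile (adjusted p = 0.00583). In the authors' deposited table Casp1 has a log2 fold change of 0.918 with an adjusted p of 0.101, and Casp4 has 2.46 with an adjusted p of 0.00376 for probe 1 and 2.42 with 0.00663 for probe 2.

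Casp1 and Casp4 are best known from macrophages and other myeloid cells, and RNAs of such cells moved the same way in these samples. In bulk RNA, more cells of a type and more RNA per cell cannot be told apart. Of 20 macrophage markers on the array 9 were measured, of which 7 rose and 0 fell. Only 7 of these 9 were well above background on all shControl arrays, and the others were tested only through the shExosc8 group. Cx3cr1, counted as rising, was well above background on 0 of 3 shControl arrays. The markers of smallest p were Tyrobp, a signalling adaptor (2.27), and Lyz2, lysozyme (2.27). The summed signal of the 9 markers was 10428 to 12153 on the shExosc8 arrays and 3392 to 4300 on the shControl arrays. Timd4 and Vcam1, carried by fetal liver macrophages, were above background on no array. Of 17 measured neutrophil and monocyte markers 15 rose and 0 fell, with summed signals of 318591 to 397532 in shExosc8 cells and 129412 to 148708 in shControl cells, and S100a8, a granulocyte calcium-binding protein, differed by 2.17. All 20 megakaryocyte markers rose (summed signal 395668 to 569546 in shExosc8 cells and 50621.5 to 72813.5 in shControl cells), Gp1bb by 3.92. Among erythroid markers 4 of 13 rose and 1 fell, the erythropoietin receptor Epor, named after its value was seen. Of measured mast cell and basophil markers 5 of 10 rose and 1 fell, of lymphoid markers 1 of 7 rose, and of hepatocyte markers 5 of 9 rose. In these 3 lists 9, 5 and 8 markers were well above background on all shControl arrays. Over all names 15.6% rose and 12.7% fell. The part of any of these cell types in the caspase differences was not tested.

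Genes that respond to interferon and to NF-kappaB, signals known to raise Casp4 in mouse macrophages, were read as lists for the same reason. Of 22 measured interferon response genes 13 rose and 2 fell (median 1.24, against -0.06 over all names). The shares over all names were 15.6% rising and 12.7% falling. Of the 22, 20 were well above background on all shControl arrays. Oasl2, an antiviral oligoadenylate synthetase-like protein, differed by 5.09 and Igtp, an immunity-related GTPase, by 2.55. Those that fell, named after their values were seen, were Eif2ak2 and Bst2. Of 19 NF-kappaB targets on the array 10 were measured, and 5 were above background on no array. Of the 10 measured NF-kappaB targets 6 rose and 0 fell (median 1.09). Relb, a subunit of the factor itself, differed by 3.41 (SE 0.19, adjusted p = 0.00043), its cofactor Bcl3 by 2.86 (adjusted p = 0.00045) and its inhibitor Nfkbia by 1.85 (adjusted p = 0.00267). Birc3 is itself a well-known NF-kappaB target, and neither of its probes was called (adjusted p = 0.0669 and 0.154). Whether these genes and the inflammatory caspases moved for 1 reason was not tested.

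The promoters of these 2 caspases are shown because both genes rose from neighbouring positions on chromosome 9. The sequences are the 250 bases before each start, on the plus strand, from RefSeq (GRCm38.p6), at chr9:5298267-5298516 for Casp1 and chr9:5308599-5308848 for Casp4. Capitals mark matches to the kappaB motif.
Casp1 promoter: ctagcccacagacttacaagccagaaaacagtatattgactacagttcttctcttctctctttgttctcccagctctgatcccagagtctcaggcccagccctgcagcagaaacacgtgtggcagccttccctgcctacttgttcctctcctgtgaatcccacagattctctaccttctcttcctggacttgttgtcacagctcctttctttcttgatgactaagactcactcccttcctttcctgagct
Casp4 promoter: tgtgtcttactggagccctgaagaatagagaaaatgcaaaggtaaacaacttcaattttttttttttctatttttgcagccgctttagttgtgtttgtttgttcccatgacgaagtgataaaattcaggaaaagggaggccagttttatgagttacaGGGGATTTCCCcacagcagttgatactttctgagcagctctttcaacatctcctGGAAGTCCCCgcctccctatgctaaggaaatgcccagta
The motifs were searched on both strands. Casp4 held 3 kappaB matches, 2 of them overlapping at 93 and 92 bases before the start and 1 at 39 bases, and 1 GATAA match at 134 bases. None of the searched motifs was found in the Casp1 window. Over all 11 listed promoters of the 8 genes, kappaB matches were found for Casp4 only, and neither the interferon-stimulated motif GAAANNGAAA nor the gamma-activated motif TTCNNNGAA was found for any. GATAA was found in 8 of the 11, those of Casp2, Casp4, Casp8, Casp9, Birc3 and, for 2 of its 3 promoters, Xiap. Of all 32851 listed promoters, 7.25% held a kappaB match, 22.6% GATAA, 2.98% GAAANNGAAA and 7.02% TTCNNNGAA. A match describes letters in this window and says nothing of binding in these cells.

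The neighbours of these genes, looked at after their values were seen, did not all move. Casp1, Casp4 and Casp12 lie side by side in RefSeq's gene order, and Casp12 was well above background on 1 of 6 arrays, so it was not tested. Beyond them Msantd4 differed by -0.07 (adjusted p = 0.652), while Gria4, Pdgfd and Ddi1 were above background on no array. Birc3 lies beside Birc2, its closest relative, which differed by 0.05 (SE 0.18, adjusted p = 0.859).

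The apoptotic caspases all lay slightly below their controls, and 1 of the 4 passed the test. Casp8, the initiator at death receptors, read 1769, 1652 and 2163 in shExosc8 cells and 2589, 2755 and 2848 in shControl cells. All 3 shExosc8 arrays were lower, with replicate 3 closest to the controls. The difference was -0.56 (SE 0.13, adjusted p = 0.027), which leaves 67.8% of the control level (95% interval 54.1% to 84.8%). That call was narrow: it was lost on leaving out any array but shExosc8 replicate 3 (adjusted p = 0.0732 to 0.0992), and without that replicate the difference was -0.68 (adjusted p = 0.00676). It was also lost with normexp and the 75th percentile (adjusted p = 0.058), with dim probes tested too (0.162) and with the slide column block (0.343). In the authors' deposited table Casp8 has a log2 fold change of -0.528 with an adjusted p of 0.211.

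Casp9, the initiator on the apoptosome, read 3515, 3808 and 3179 in shExosc8 cells and 4404, 4309 and 4533 in shControl cells. The difference was -0.34 (SE 0.11, 95% interval -0.61 to -0.07, adjusted p = 0.064). Casp2, which the PIDDosome activates after damage to DNA or failed division, read 12588, 13703 and 14306 in shExosc8 cells and 16669, 16947 and 17260 in shControl cells. Its shControl arrays lay close together and above all shExosc8 arrays, and the difference was -0.33 (SE 0.10, 95% interval -0.57 to -0.08, adjusted p = 0.0563). Casp6, an executioner that cleaves lamin A, read 2151, 2165 and 1692 in shExosc8 cells and 2515, 2732 and 2676 in shControl cells. Here the lowest shExosc8 array was replicate 3, and the difference was -0.41 (SE 0.13, 95% interval -0.73 to -0.08, adjusted p = 0.0641). These 3 genes did not pass the threshold, and the interval of each stayed below 0. An exact permutation test over the 6 arrays gave p = 0.1 for each of them, the smallest value that 3 arrays against 3 allow. Casp2, Casp6 and Casp9 all passed under some other scalings: with the 75th percentile taken over all probes 5 of the 8 genes fell, and that scaling moved the median of all probes to -0.23, against -0.08 here. In the authors' deposited table Casp9 has a log2 fold change of -0.294, Casp2 of -0.391 and Casp6 of -0.493, with adjusted p-values of 0.329, 0.216 and 0.311.

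Set side by side, the classes lay on opposite sides of 0. Of the inflammatory caspases, Casp4 differed by 3.10 and Casp1 by 2.38, or by 0.65 and 0.90 with normexp. The bound of at least 3.55-fold for Casp1 applies only to the signals without normexp. The apoptotic caspases differed by -0.33 to -0.56 (median -0.37). The median over all names was -0.06, with quartiles of -0.359 and 0.335. Casp2 and Casp9 lay between these quartiles, and Casp6 and Casp8 below the lower one. Every alternative analysis kept both inflammatory caspases, where they were tested, above 0 and all 4 apoptotic caspases below 0. No test of the class difference was made, since the genes were chosen with results of these data known and probes of different genes need not respond alike.

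**Figure D2:**
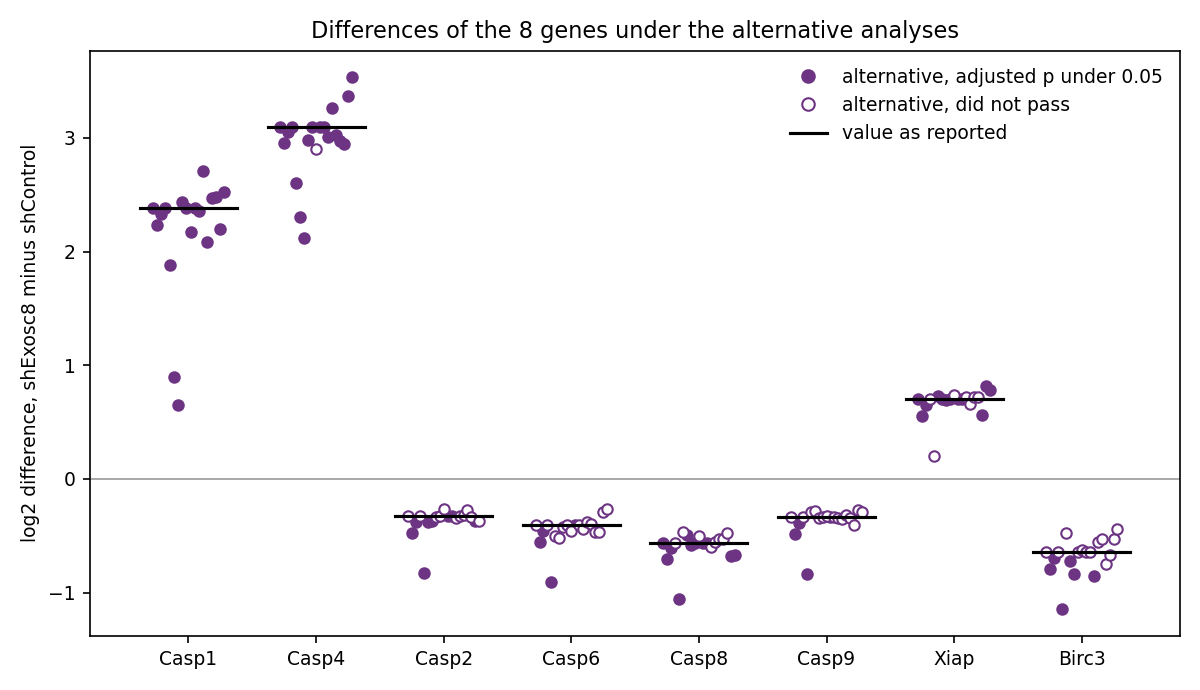
Log2 difference, shExosc8 minus shControl (vertical axis), of the 8 genes as reported (black line) and under each alternative analysis (circles, filled where the adjusted p was under 0.05). Casp1 ranged from 0.65 to 2.71 and Casp4 from 2.12 to 3.53, while open circles are frequent among Casp2, Casp6, Casp9 and Birc3.

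Of the inhibitors, Xiap was called as rising and Birc3 was not called. Xiap, which binds and blocks active caspases such as Casp9, read 3197, 3963 and 2767 in shExosc8 cells and 2081, 1903 and 2065 in shControl cells. Every shExosc8 array was above every shControl array, with the spread mostly among the shExosc8 arrays. The difference was 0.70 (SE 0.15, adjusted p = 0.0215), or 1.62-fold (95% interval 1.25 to 2.10). Leaving out shExosc8 replicate 1 or any shControl replicate ended the call (adjusted p = 0.061 to 0.0717), as did the slide column block (0.224) and testing dim probes too (0.128). Without normalization between arrays the difference was 0.20 (adjusted p = 0.507), where the median of all probes was -0.58. In the authors' deposited table Xiap has a log2 fold change of 0.741 with an adjusted p of 0.0716.

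Birc3, also called cIAP2, was measured by 2 unrelated probes, and neither passed. The brighter probe read 197, 175 and 145 in shExosc8 cells and 200.5, 302 and 316 in shControl cells. The groups were separated only by the small gap between shExosc8 replicate 1 and shControl replicate 1, and the difference was -0.65 (SE 0.22, 95% interval -1.17 to -0.13, adjusted p = 0.0669). The dimmer probe read 33.3, 52.6 and 64.5 in shExosc8 cells and 55.7, 117 and 78.0 in shControl cells, and was well above background on 1 of 3 shExosc8 arrays and on 3 of 3 shControl arrays. Its groups overlapped, and its difference of -0.72 (SE 0.35, adjusted p = 0.154) became 0.10 with normexp and the 75th percentile. In the authors' deposited table the brighter probe has a log2 fold change of -0.801 with an adjusted p of 0.134, and the dimmer one -0.237 with 0.586.

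Around the 8 genes, 2 further caspases were examined. Casp14, a caspase of the epidermis, differed by 0.49 (SE 0.17, adjusted p = 0.0795). Casp12 was too dim to be tested. Over the 8 caspases examined, the 6 described above included, 7 were measured, of which 2 rose and 1 fell, with a median of -0.33. All names had shares of 15.6% rising and 12.7% falling. Of the 7 measured, 6 were well above background on all shControl arrays. Casp1, counted as rising, was not among those 6.

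Among the 9 measured IAP family genes 2 rose, Xiap and Naip6, and 1 fell, Birc6, with a median of 0.00. These counts are not far from the shares over all names, 15.6% rising and 12.7% falling. Birc6, a giant ubiquitin ligase that restrains caspases, read 1016, 1069 and 1044 in shExosc8 cells and 1465, 1545 and 1454 in shControl cells (difference -0.51, SE 0.10, adjusted p = 0.0133). Naip6 differed by 0.66 (adjusted p = 0.00715), Naip2 by 0.39 (adjusted p = 0.0546), Naip5 by -0.11 (adjusted p = 0.428) and Naip1 by -1.03 (adjusted p = 0.108). The Naip1 probe was well above background on 0 of 3 shExosc8 arrays and on all 3 shControl arrays. In the signals as scaled here this bounds it as at least 1.24-fold lower, and its fitted difference ran from -0.08 to -1.53 under the alternatives. The Naip genes, sensors of bacterial proteins in the mouse inflammasome, are near-identical copies, so signal from 1 of them may reach the probe of another and their values are uncertain. Birc5, survivin, which also serves in cell division, differed by 0.00 (SE 0.13, adjusted p = 0.998). The plot of both families gives each difference with its interval.

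**Figure D3:**
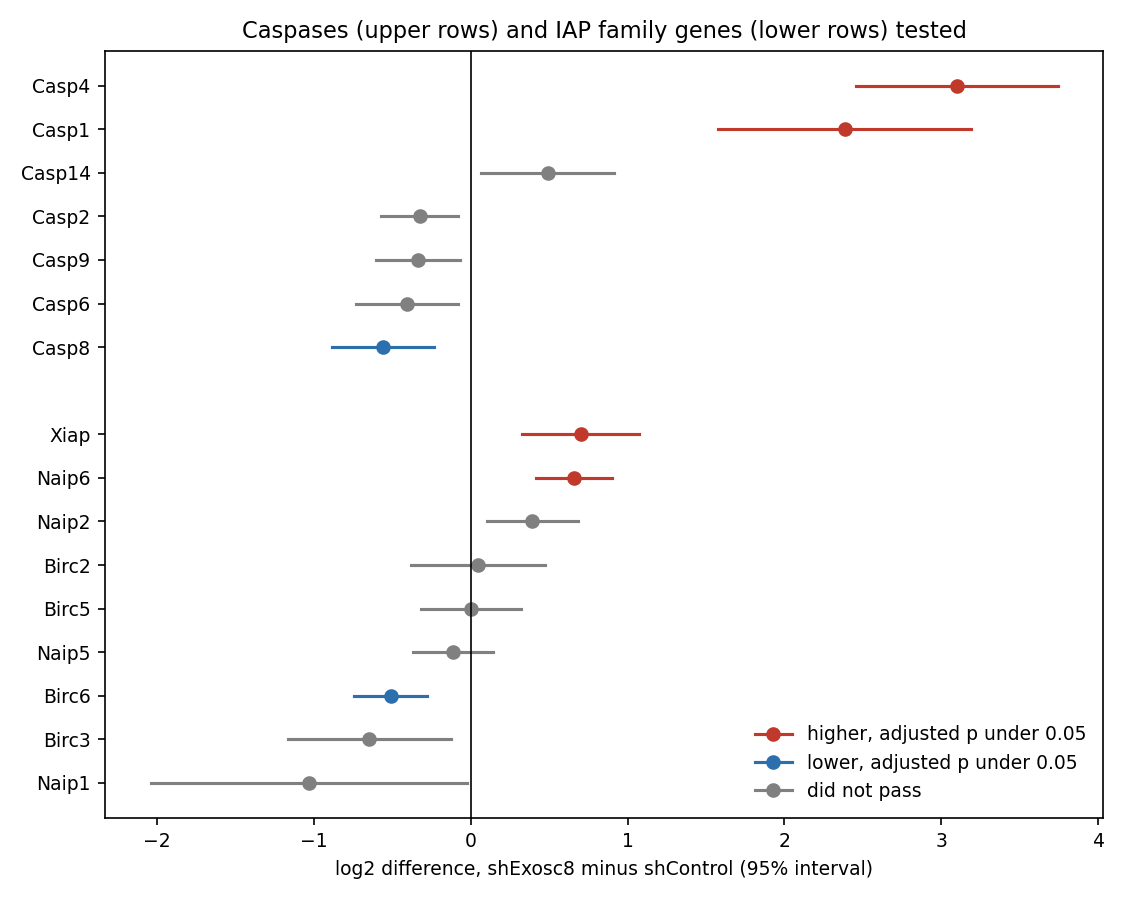
Log2 difference, shExosc8 minus shControl, with its 95% interval (horizontal axis), for 7 caspases and 9 IAP family genes, coloured by whether the adjusted p was under 0.05. Casp4 lies at 3.10, while the points for Casp1 (2.38) and Naip1 (-1.03) each set 1 group against another in which the probe was well above background on 0 of 3 arrays.

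Upstream of the initiator caspases, genes of both activation routes went in both directions. Over all names 15.6% rose and 12.7% fell. Of 14 measured genes of the apoptosome and its activation 2 rose and 2 fell (median -0.10), close to those shares both ways. Those that rose were the death-promoting Bcl2 relatives Bmf (2.81, adjusted p = 0.00401) and Bbc3, known as PUMA (2.41, adjusted p = 0.0072), which release the mitochondrial pathway that ends in Casp9. Bbc3 read 46329, 57694 and 21537 in shExosc8 cells and 8253, 7722 and 5977 in shControl cells. Those that fell were Pidd1, the scaffold that activates Casp2 (-0.59, adjusted p = 0.0115), and Bad (-0.53, adjusted p = 0.0126). Of 15 measured genes of death receptor and necroptosis signalling, the route of Casp8, 4 rose and 3 fell (median -0.24). The ligand Fasl (2.97, adjusted p = 0.0239, well above background on 1 of 3 shControl arrays), the receptor Tnfrsf1a (0.88) and Mlkl (1.33), the pore former of necroptosis that Casp8 activity holds in check, rose, while the adaptor Tradd fell (-0.61). The other 3 genes called, named after their values were seen, were Traf1, which rose, and Ripk1 and Tnfrsf10b, which fell.

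Partners of the inflammatory caspases were often below detection. Of 20 inflammasome genes on the array 8 were measured, of which 4 rose and 1 fell (median 0.43). The shares over all names were 15.6% rising and 12.7% falling. Of the 8 measured, 7 were well above background on all shControl arrays. Il1b, the cytokine precursor that Casp1 cleaves, read 377, 401 and 168 in shExosc8 cells and 41.2, 48.7 and 24.0 in shControl cells (3.01, SE 0.41, adjusted p = 0.00516). Its probe was well above background on 2 of 3 shControl arrays, so it entered the test only through the shExosc8 group. The difference went as low as 1.54 under the alternatives. Gsdme, a pore-forming gasdermin, differed by 2.21 (adjusted p = 0.0037), Nlrp6, an inflammasome sensor, by 0.96 (adjusted p = 0.00468) and Pycard, the adaptor that joins sensors to Casp1, by 0.53 (adjusted p = 0.0289). The gene that fell, named after its value was seen, was the sensor Nlrp1a (-0.35, adjusted p = 0.0495). Gsdmd, the substrate through which Casp1 and Casp4 lyse cells, was also looked up after the values were seen and differed by -0.13 (adjusted p = 0.645). The sensors Nlrp3, Nlrc4 and Aim2, looked up in the same way, were not above background often enough to be tested.

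Downstream and beside the caspases, other inhibitors and the substrates were mixed too. Of 11 measured IAP antagonists and other inhibitors 4 rose and 3 fell (median -0.18). Dffa, the inhibitor of the caspase-activated DNase (-0.80, adjusted p = 0.00912), Faim (-0.60, adjusted p = 0.0095) and Aven (-0.58, adjusted p = 0.0143) fell, and Serpinb9, a granzyme B inhibitor, rose (0.86, adjusted p = 0.00943). The other 3 that rose, named after their values were seen, were Cflar, the Casp8-like decoy also called c-FLIP, Cdkn1a and Bag1. Of 15 measured substrates cut during cell dismantling 2 rose and 3 fell (median -0.21), not far from the 15.6% and 12.7% of all names. The actin-severing protein Gsn rose (3.03, adjusted p = 0.00166) as did the spectrin Sptan1 (0.94, adjusted p = 0.0238), while Dffa, Parp1 (-0.78, adjusted p = 0.0227) and, named after its value was seen, Lmnb1 fell. The plot of the lists shows medians between -0.33 and 0 for all but the inflammasome and NF-kappaB lists.

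**Figure D4:**
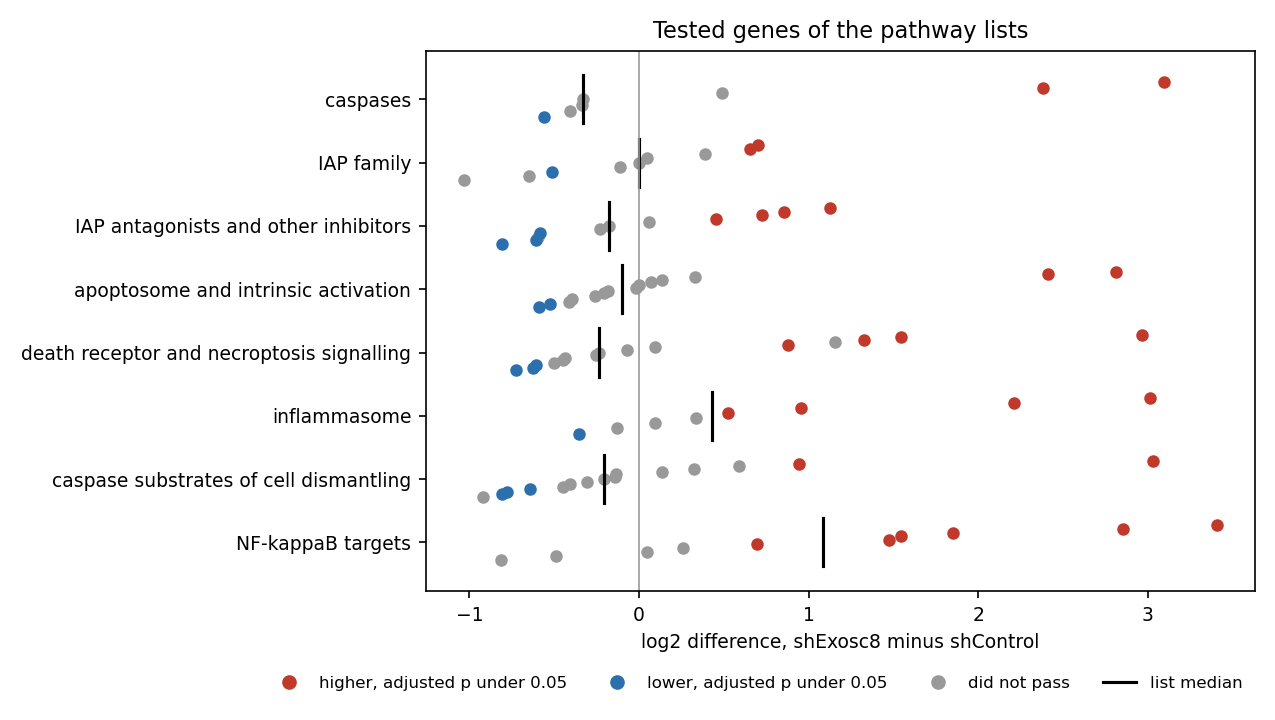
Log2 difference, shExosc8 minus shControl (horizontal axis), of each tested gene in 8 lists around the caspases, coloured by whether the adjusted p was under 0.05, with a black line at each list's median. The NF-kappaB targets have the highest median (1.09) and the inflammasome list the next (0.43), and the other 6 medians lie between -0.33 and 0.00.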

How the data were processed

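RNA of 6 samples was hybridised to 1-colour arrays. Per the file headers, the deposited spot intensity values came from Agilent Feature Extraction 10.7.3.1, with background already subtracted and with flags for spots well above background. The deposited series table holds the same intensity values (equal within 0.01%) beside the authors' own log2 fold changes and p-values, for which the submitters' processing notes name limma. Their normalization is not given in the sources used. Per the file headers, probes are placed on mm9.

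From these, log2 intensity minus each array's 75th percentile over 21615 probes (38.8% of 55660) detected on every array, meaning well above background, was computed, with spots of 1 probe averaged and control and outlier spots left out. Probes detected on every array of 1 group or both, 24836 in all, were tested with limma 3.58.1 in R 4.3.3 (lmFit and eBayes, two-sided, all 6 arrays, no covariate), and each name was represented by its probe of highest mean. Arrays correlated at 0.985 to 0.997 within groups and 0.953 to 0.978 between groups, and no spot was saturated. Precision is limited by 3 arrays per group. The limma fit was tested on simulated data, but background handling, scaling, spot averaging and the filter were not.

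Named genes were the 8 members, other caspases and IAPs, Exosc8, and up to 4 genes of smallest p from each list. The members and lists were chosen with earlier results of these data known, so they are described by counts and medians with no list test. Some genes of these lists are not reported here. Alternatives covered background correction, scaling, the filter on dim probes, 1 probe per name, a trended robust fit, replicate and slide column blocks, and leaving arrays out. Names and promoters came from RefSeq tables (GRCm38.p6). Promoters were found for 8 of 8 members.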

Additional observations from a re-analysis of the deposited data

How the results depend on the processing

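With 3 arrays per group, calls near the threshold moved easily. Counts of the 8 genes rising and falling were 3 and 1. Falling genes numbered 3 with normexp and quantile normalization, 5 with the 75th percentile of all probes, 5 with the median of detected probes, 5 with no normalization between arrays, 2 with quantile normalization, 4 with trended robust eBayes, 2 among 7 genes well above background on all 6 arrays (where Casp1 drops out), 0 without a filter on dim probes and 0 with the slide column block, under which 1 gene, Casp1, rose. Leaving out 1 array gave 2 to 3 rising and 0 to 2 falling. Over all names 15.6% rose and 12.7% fell. Over the 86 measured pathway genes, some of them tested only through the shExosc8 group, 25 rose and 13 fell. These were 14 and 37 with no normalization between arrays, 11 and 0 without the filter, 4 and 0 with the slide column block, 24 and 22 with the 75th percentile of all probes, 27 and 22 without shExosc8 replicate 3 and shControl replicate 2, and 14 to 28 and 2 to 25 when 1 array was left out.

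Scaling shifted the balance over all probes: 52.8% of calls were up as reported, 35.4% with the 75th percentile of all probes, 67.8% when normexp came before that of detected probes, 16.6% with no normalization between arrays, 83.5% without the filter and 92.9% with the slide column block. With the slide column block 379 probes rose and 29 fell, against 3645 and 3263. That block leaves the comparison to the arrays of columns 2 and 3. The smaller number of arrays and slide position therefore cannot be told apart in its lost calls. The replicate block left 3 genes rising and 1 falling and changed no call among the 8. Deviations of same-numbered arrays correlated at 0.05, 0.21 and 0.28, which does not make the numbers pairs.

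No representative probe of the 8 genes changed sign in any alternative, though Casp1 passed the filter only through the shExosc8 group. The dimmer Birc3 probe was 0.10 with normexp and the 75th percentile. Other sign changes touched genes that were not called. Birc2 was -0.14 (normexp and quantile), -0.069 (normexp and 75th percentile), -0.10 (75th percentile of all probes), -0.003 (median), -0.012 (quantile), -0.45 (no normalization) and -0.004 (slide column block), and -0.053 to 0.265 with 1 or 2 arrays left out. Birc5 was -0.089 to 0.11 with 1 array left out (0.02 and 0.004 without shControl replicates 1 and 2) and 0.12 without shExosc8 replicate 3 and shControl replicate 2. Without normalization Casp14 was -0.01 and Naip2 -0.11. The cause of these changes was not tested. The size of the Casp1 difference, measured by a dim probe, depended on the background correction. Casp1 stayed called in every alternative that tested it, but not in the authors' deposited table (adjusted p = 0.101).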
